A study of Mus musculus with 17 samples.

Results

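The Ms4a family is described here through 6 member genes, Ms4a3, Ms4a4b, Ms4a4c, Ms4a6b, Ms4a6c and Ms4a6d, out of 35321 gene symbols in a table of raw read counts. The members were picked by symbol. The choice rested on earlier results of the same data, in which Ms4a6b was among the few genes that were still higher 72 h after lipopolysaccharide (LPS, part of the outer membrane of many bacteria and a trigger of inflammation) than after saline. For that reason the comparison of LPS at 72 h with saline is given below for the members as a description only. All 6 members passed the filter on low counts, and 14920 genes were tested.

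The libraries were made from polyadenylated RNA of immature blood-forming cells, labelled HSPC for hematopoietic stem and progenitor cells, that had been sorted from the bone marrow of wild-type C57BL/6J mice, an inbred laboratory strain. Injections were intraperitoneal. There were 5 libraries from mice injected with phosphate-buffered saline (PBS, labelled day 0). The other 4 groups held 3 libraries each and came from mice injected with LPS alone or with LPS plus a blocking antibody to the receptor of interleukin-10, a cytokine that restrains inflammation, harvested after 24 h or after 72 h. The injected amounts stand in micrograms in the design text and in milligrams in the sample protocol, and neither was assumed to be correct. No allele or transgene separates the groups. The labels give no age or sex and do not state that the numbered libraries of a group came from separate animals, so the p-values measure the spread between these libraries, which may in part be technical. No antibody was given without LPS, and no control antibody is listed.

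Ms4a genes encode small proteins that cross the membrane several times and lie together in a gene cluster. The family includes Ms4a1, which encodes the B cell antigen CD20, and Ms4a2, which encodes the beta chain of the high-affinity IgE receptor of mast cells and basophils. In blood formation Ms4a3 is known as a gene of granulocyte-monocyte progenitors, the Ms4a6 genes are known from monocytes and macrophages, and Ms4a4b is known from T cells and natural killer cells.

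The members lie on chromosome 19 of the mouse genome build GRCm38, within 236 kb of a cluster of 679 kb that holds 19 annotated Ms4a genes. All 6 are annotated as protein-coding genes. Ms4a4c (chr19:11404770-11427246), Ms4a4b (chr19:11443553-11467055), Ms4a6c (chr19:11469366-11482192) and Ms4a6b (chr19:11516512-11531256) lie on the plus strand, one after another. Ms4a6d (chr19:11586604-11604849) and Ms4a3 (chr19:11629496-11640851) lie on the minus strand, with Ms4a2 between them. The map of the cluster shows these positions with the calls for LPS at 72 h against LPS at 24 h.

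**Figure D1:**
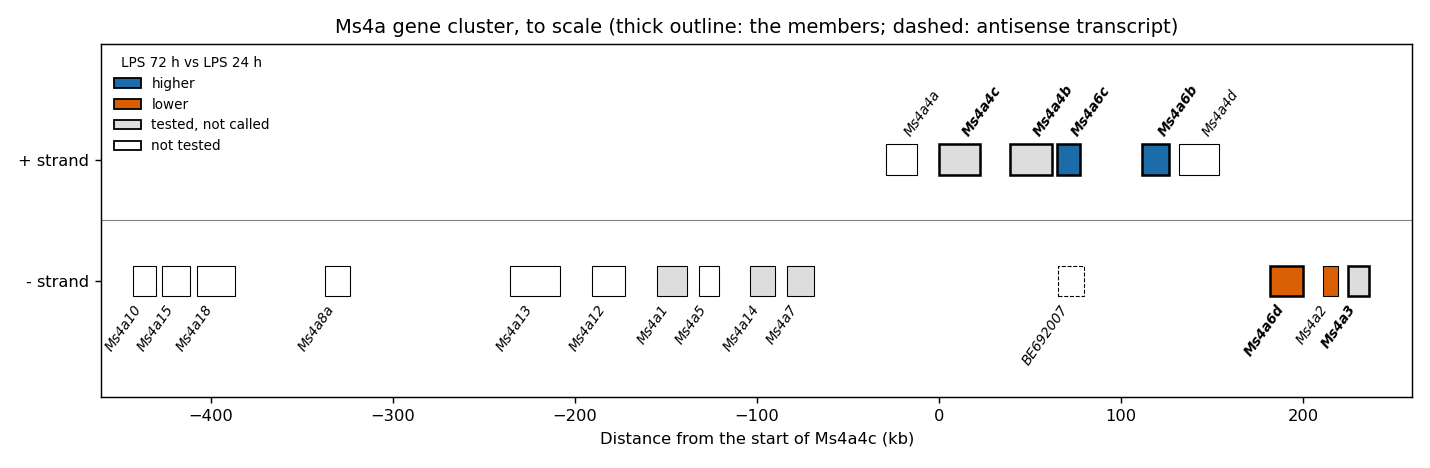
Map of the Ms4a cluster drawn to scale, with distance from the start of Ms4a4c in kb on the horizontal axis and the strand on the vertical axis. Thick outlines mark the 6 members, and the fill marks genes called higher (Ms4a6b and Ms4a6c) or lower (Ms4a6d and Ms4a2) with LPS at 72 h than with LPS at 24 h.

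Upstream sequence was available in the RefSeq promoter table (GRCm38.p6) for 5 of the 6 members: Ms4a3, Ms4a4b, Ms4a4c, Ms4a6b and Ms4a6c. The windows of Ms4a4b (chr19:11443308-11443552, plus strand) and Ms4a4c (chr19:11407411-11407660, plus strand) are shown because this pair had the highest identity over a global alignment among the 10 pairs, a ranking that other measures of likeness need not share. Each window runs 5′ to 3′ and ends before the first annotated exon base, and capitals mark the longest run of bases shared within the pair.
Ms4a4b: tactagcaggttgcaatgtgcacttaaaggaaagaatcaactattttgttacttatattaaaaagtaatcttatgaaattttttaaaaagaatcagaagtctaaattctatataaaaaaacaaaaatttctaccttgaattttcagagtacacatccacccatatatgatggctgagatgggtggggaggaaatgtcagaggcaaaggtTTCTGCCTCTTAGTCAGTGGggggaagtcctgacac
Ms4a4c: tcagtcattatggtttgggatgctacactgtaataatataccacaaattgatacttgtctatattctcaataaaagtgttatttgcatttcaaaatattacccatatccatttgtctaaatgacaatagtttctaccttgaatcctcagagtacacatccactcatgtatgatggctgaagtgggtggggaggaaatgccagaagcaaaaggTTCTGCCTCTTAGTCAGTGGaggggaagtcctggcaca
The Ms4a4b and Ms4a4c windows were identical at 70.3% of aligned positions and shared a run of 20 bases, TTCTGCCTCTTAGTCAGTGG, held by 2 of 32851 promoters. The Ms4a4c window lies inside the span of a longer annotated transcript of the same gene. On both strands, the core of the interferon-stimulated response element (GAAA, any 2 bases, GAAA), the STAT site TTCNNNGAA, the PU.1-like site AGAGGAAGT and the C/EBP-like site TTGCNNAA had no match in any of the 5 windows, and 2.98%, 7.02%, 0.798% and 9.56% of all promoters held them.

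Levels are given in CPM, the count per 1000000 counts of a library total that was scaled by its TMM factor (trimmed mean of M-values), and they were compared between genes per kb of exon. Exon length was merged over all annotated transcripts of a gene. It was 8780 bases for Ms4a4b and 4485 for Ms4a6b, against 1735 to 2050 for the other 4 members. Ms4a3 was the most abundant member per kb in every group but LPS at 72 h, where its mean of 140 CPM per kb was level with the 141 CPM per kb of Ms4a6c. It had 122 ± 82.8 CPM per kb (SD, n = 5) in PBS and 409 ± 247 CPM per kb (SD, n = 3) with LPS at 24 h. Ms4a6c came next, with 55.1 ± 22.1 CPM per kb (SD, n = 5) in PBS. Ms4a6b had 9.01 ± 1.91 and Ms4a4c 5.56 ± 2.6 CPM per kb in PBS, Ms4a6d 2.76 ± 1.69 and Ms4a4b 1.15 ± 0.555 (SD, n = 5 each). The last place of Ms4a4b depends on its merged length. Without division by length its PBS mean of 10.1 CPM was close to that of Ms4a4c (9.73 CPM) and above that of Ms4a6d (4.78 CPM). The members also differed in spread. From the lowest to the highest of the 17 libraries Ms4a3 varied 41.8-fold, from 30.6 CPM in PBS library 5 to 1280 CPM in LPS 24 h library 1, and Ms4a6b varied 3.5-fold, from 29.7 to 104 CPM. The smallest counts behind a value were 26 reads for Ms4a6d and 44 reads for Ms4a4b, and every value of the other 4 members rested on at least 63 reads.

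**Figure D2:**
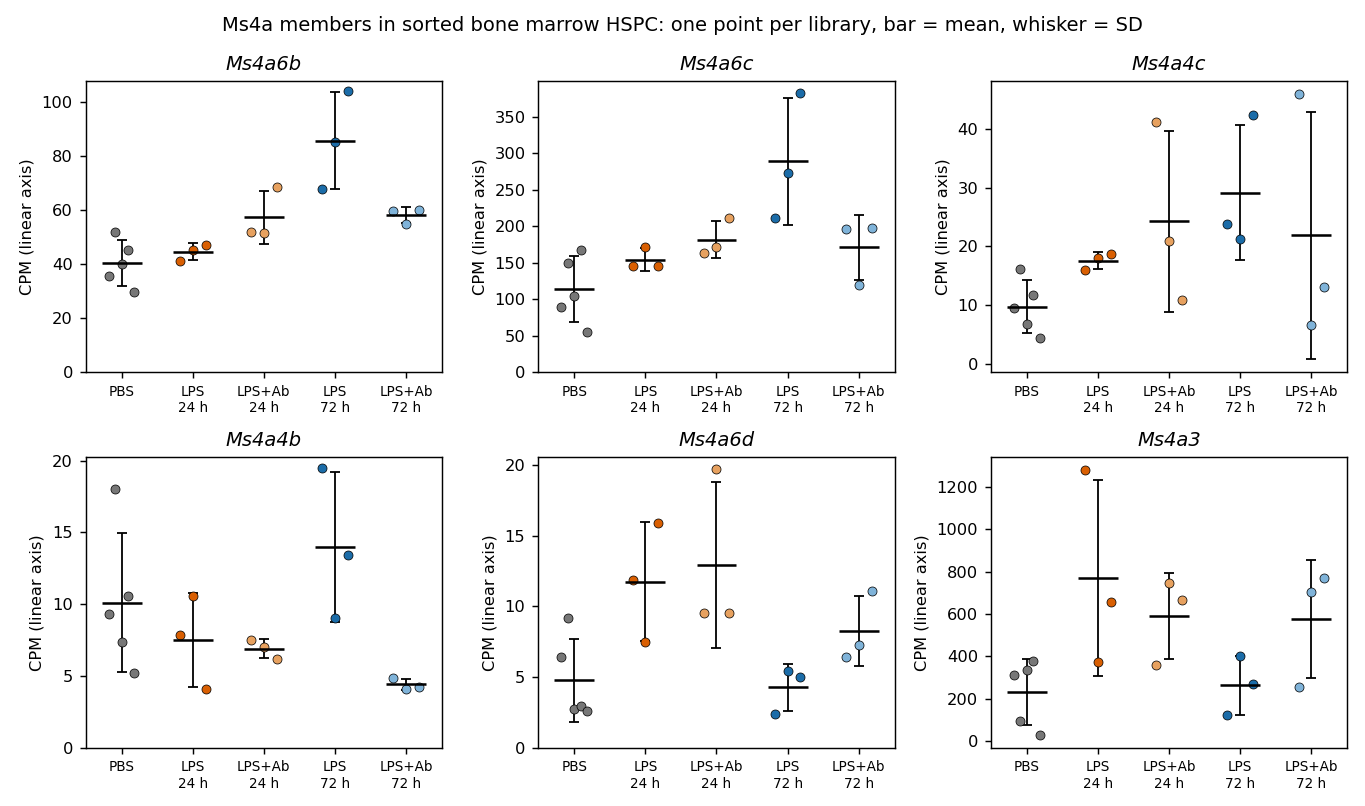
CPM of each member (vertical axes, linear, each with its own range) in the 17 libraries by group (horizontal axes). Points are libraries, bars are means and whiskers are SDs. The 3 libraries of LPS at 72 h are the highest group for Ms4a6b (67.9 to 104 CPM) and Ms4a6c (211 to 383 CPM).

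Ms4a6b and Ms4a6c, both known from monocytes and macrophages, were higher with LPS at 72 h than with LPS at 24 h. Ms4a6b was at 35.4, 51.8, 40.0, 45.3 and 29.7 CPM in the PBS libraries and at 41.0, 45.3 and 47.2 CPM with LPS at 24 h. It was at 67.9, 85.1 and 104 CPM with LPS at 72 h. The 72 h libraries lay above all libraries of both other groups. With LPS and antibody Ms4a6b was at 51.8, 51.4 and 68.6 CPM at 24 h and at 59.7, 54.8 and 59.9 CPM at 72 h, so that the 72 h antibody libraries lay between the PBS libraries and the 72 h libraries of LPS alone without overlap with either. By edgeR's quasi-likelihood test over all 14920 genes, Ms4a6b rose 1.92-fold from 24 h to 72 h of LPS (log2 change 0.94, SE 0.193, adjusted p = 0.00221), and the call held with each of the 6 libraries left out in turn (0.76 to 1.08, adjusted p from 0.00317 to 0.0134). The 72 h LPS libraries are those in which Ms4a6b was chosen as high, so a rise to them was favoured by the choice and its stability is no independent support.

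Ms4a6c was at 89.9, 150, 105, 167 and 55.1 CPM in the PBS libraries, at 146, 172 and 145 CPM with LPS at 24 h and at 211, 273 and 383 CPM with LPS at 72 h. Again the 72 h libraries lay above the others. Ms4a6b was chosen as high in those libraries, and Ms4a6c followed Ms4a6b (Pearson r = 0.88 after group means were subtracted). High values of Ms4a6c there were therefore favoured by the choice too. In the antibody groups Ms4a6c was at 163, 171 and 211 CPM at 24 h and at 196, 119 and 198 CPM at 72 h. These overlapped each other, and the 72 h values lay below all 3 of LPS alone. The rise from 24 h to 72 h of LPS was 1.87-fold (log2 change 0.91, SE 0.327, edgeR adjusted p = 0.0458). That call was lost without LPS 24 h library 1 (adjusted p = 0.114), 2 (0.0654) or 3 (0.122) and without LPS 72 h library 2 (0.0772) or 3 (0.199), where the log2 change was between 0.63 and 0.99, and when no filter was applied (0.89, adjusted p = 0.0558).

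Over the same libraries, the summed level of 9 monocyte markers (among them Csf1r, the receptor for colony-stimulating factor 1) ran from 541 to 925 CPM with LPS at 24 h, from 1360 to 3010 CPM with LPS at 72 h and from 651 to 1260 CPM with LPS and antibody at 72 h. It ran from 608 to 2090 CPM in PBS. Of the 9, 3 were called higher and 0 lower with LPS at 72 h than at 24 h, a share near the 31.1% of all genes called, and none was at 0 in all libraries of a group. Over the 17 libraries Ms4a6b followed the monocyte sum with Pearson r = 0.66 and Ms4a6c with 0.62. After group means were subtracted these were 0.78 and 0.75. The part of monocyte-like cells in the rise of Ms4a6b and Ms4a6c was not tested. In sorted bulk samples, more cells that express a gene and more RNA per cell cannot be told apart.

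Much of Ms4a6c cannot be counted apart from its neighbour on the other strand unless strand was used. The noncoding transcript BE692007 (chr19:11470166-11484578, minus strand) overlaps 53.1% of the exon bases of Ms4a6c, and whether the counting used strand is not given in the sources used here. BE692007 had a count that was 31.6% to 39.5% of that of Ms4a6c in each library. Its log2 CPM followed that of Ms4a6c with Pearson r = 0.99 and Spearman rho = 0.99 over 17 libraries, which share group and depth (r = 0.98 without the 2 libraries farthest from the median). BE692007 itself was not called for LPS at 72 h against 24 h (log2 change 0.91, SE 0.357, edgeR adjusted p = 0.063). Windows of 50 bases in the annotated transcripts of each member were sought on either strand. Of those of Ms4a6c, 51.4% also occurred in a transcript of another gene, led by BE692007. That share was 8.19% for Ms4a4c, 3.57% for Ms4a6b, 2.54% for Ms4a6d, 2.4% for Ms4a4b and 0% for Ms4a3. In windows of 100 bases it was 45.8% for Ms4a6c, 1.66% for Ms4a4c, 0.473% for Ms4a4b and 0% for the other 3. BE692007 held 49.6% of the 50-base windows of Ms4a6c, which largely restates the overlap on the opposite strand given above. How reads matching more than 1 gene were assigned is likewise unstated, so the counts of Ms4a6c and, to a lesser degree, of Ms4a4c, Ms4a6b, Ms4a6d and Ms4a4b are uncertain.

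**Figure D3:**
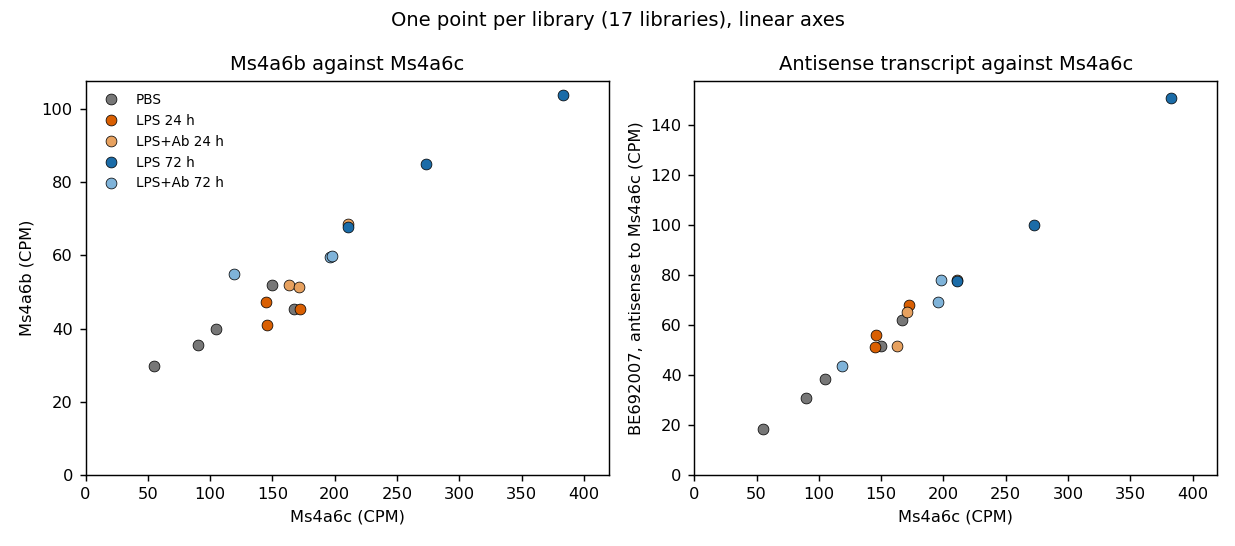
Ms4a6b (left) and BE692007, the transcript antisense to Ms4a6c (right), against Ms4a6c, each in CPM on linear axes, with 1 point per library (17) coloured by group. Both rise with Ms4a6c, and LPS 72 h library 3 is the highest in each.

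Ms4a6d, the remaining Ms4a6 gene, went the other way from Ms4a6b and Ms4a6c between 24 h and 72 h of LPS. It was at 6.40, 9.20, 2.75, 2.94 and 2.59 CPM in the PBS libraries, at 11.9, 7.48 and 15.9 CPM with LPS at 24 h and at 2.38, 5.41 and 5.04 CPM with LPS at 72 h. All 72 h libraries lay below all 24 h libraries, and 1 PBS library lay within the range of the 24 h group. With antibody it was at 9.52, 19.7 and 9.51 CPM at 24 h, above all PBS libraries, and at 6.39, 7.28 and 11.1 CPM at 72 h, above all libraries of LPS alone at that time. Ms4a6d fell by 1.45 on the log2 scale from 24 h to 72 h of LPS (SE 0.503, edgeR adjusted p = 0.0388), a 2.73-fold lower level. It lost that call without LPS 24 h library 1 (adjusted p = 0.0824) or 3 (0.126) and without LPS 72 h library 1 (0.143), 2 (0.057) or 3 (0.0634), and with upper-quartile factors (log2 change -1.34, adjusted p = 0.0538).

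Against PBS, Ms4a6d was 2.47-fold higher with LPS at 24 h (log2 change 1.30, SE 0.43, edgeR adjusted p = 0.0266) and 2.71-fold higher with LPS and antibody at 24 h (log2 change 1.44, SE 0.429, adjusted p = 0.0266). The first call was lost without PBS library 3 (adjusted p = 0.0595), 4 (0.0554) or 5 (0.0595) and without LPS 24 h library 1 (0.0713) or 3 (0.121). The second was lost without PBS library 3 (adjusted p = 0.0551), 4 (0.0501) or 5 (0.0577) and without antibody 24 h library 2 (0.156). Deviations from the group means correlated weakly across genes (0.158 to 0.191) between same-numbered libraries of PBS and of LPS at 24 h. The labels do not state a pairing. With the replicate number as a block, in a fit of the libraries numbered 1 to 3, Ms4a6d was no longer called for LPS at 24 h (log2 change 1.00, SE 0.466, adjusted p = 0.127). The same 15 libraries without the block lost the call too (log2 change 0.95, SE 0.459, adjusted p = 0.136).

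As a share of the summed counts of Ms4a6b, Ms4a6c and Ms4a6d, which does not depend on how libraries are scaled, Ms4a6d made up a mean of 3.09% in PBS (SD 1.52, n = 5). With LPS the mean was 5.64% at 24 h (SD 2.17, n = 3) and 1.12% at 72 h (SD 0.33, n = 3). The shares with LPS at 72 h, from 0.847% to 1.49%, lay below all shares with LPS at 24 h, from 3.33% to 7.62%. Ms4a6b, part of the sum, was chosen as high in the LPS 72 h libraries. A lower share of Ms4a6d there was therefore favoured by the choice and is no independent support. In the antibody groups the share was 5.23 ± 2.57% at 24 h and 3.53 ± 0.949% at 72 h (SD, n = 3 each). In LPS 72 h library 1, the lowest, it rested on 26 of 3071 reads, with a 95% Wilson interval from 0.578% to 1.24% that covers counting error only. Ms4a6b held a mean share between 21.2% and 26.7% and Ms4a6c between 70.2% and 76.0% over the 5 groups.

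Ms4a3, known from granulocyte-monocyte progenitors, had its 6 highest values in libraries of mice given LPS for 24 h or LPS with antibody. It was at 312, 95.1, 333, 377 and 30.6 CPM in the PBS libraries and at 1280, 371 and 658 CPM with LPS at 24 h. With LPS at 72 h it was at 123, 401 and 268 CPM. The 24 h and 72 h libraries of LPS overlapped, as did the 24 h and PBS libraries. In the antibody groups it was at 360, 744 and 668 CPM at 24 h and at 256, 703 and 769 CPM at 72 h. By edgeR Ms4a3 was 3.35-fold higher with LPS at 24 h than with PBS (log2 change 1.74, SE 0.63, adjusted p = 0.0396). The call was lost without PBS library 2 (adjusted p = 0.0837) and without LPS 24 h library 1 (log2 change 1.17, adjusted p = 0.242) or 3 (0.0618), and with the replicate block (log2 change 1.69, SE 0.622, adjusted p = 0.0611), as it was in the same 15 libraries unblocked (1.64, SE 0.589, adjusted p = 0.0528).

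The summed level of 7 granulocyte-monocyte progenitor markers ran from 2530 to 15000 CPM in PBS and from 8500 to 17400 CPM with LPS at 24 h. Of these markers 0 were called higher and 1 lower at 24 h, where 37.6% of all genes were called. Over the 17 libraries Ms4a3 followed that sum with r = 0.80, and with r = 0.92 after group means were subtracted. The part of such cells in the level of Ms4a3 was not tested. Among markers of stem and progenitor cells, 7 of 11 were called lower and 0 higher with LPS at 24 h than with PBS, and their sum ran from 1090 to 1240 CPM against 1750 to 2570 CPM in PBS, with none at 0 in a whole group.

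Ms4a4b, known from T cells and natural killer cells, was lowest with LPS and antibody at 72 h. It was at 9.35, 18, 7.40, 10.6 and 5.19 CPM in the PBS libraries, at 7.87, 10.6 and 4.08 CPM with LPS at 24 h and at 19.5, 9.04 and 13.4 CPM with LPS at 72 h. With antibody it was at 7.49, 7.02 and 6.17 CPM at 24 h and at 4.87, 4.11 and 4.24 CPM at 72 h. The 72 h antibody libraries lay below all libraries of PBS, of LPS at 72 h and of antibody at 24 h, and the lowest LPS 24 h library lay below them. Ms4a4b was 3.17-fold lower with LPS and antibody than with LPS alone at 72 h (log2 change -1.66, SE 0.415, edgeR adjusted p = 0.0155). The call was lost without LPS 72 h library 1 (log2 change -1.35, adjusted p = 0.0861) and held in the other 5 fits that left a library out.

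Against PBS, Ms4a4b was 2.29-fold lower with LPS and antibody at 72 h (log2 change -1.19, SE 0.38, edgeR adjusted p = 0.0497). That call was lost without PBS library 1 (adjusted p = 0.0641), 2 (log2 change -0.88, 0.108), 3 (0.0602) or 4 (0.0689) and without antibody 72 h library 1 (0.107), 2 (0.111) or 3 (0.132). Of 10 T and natural killer cell markers, 2 were called lower and 0 higher with antibody than without at 72 h, and 6 were called lower than in PBS, where 15.1% and 13.2% of all genes were called. Their summed level ran from 70.2 to 198 CPM with LPS and antibody at 72 h, from 182 to 266 CPM with LPS at 72 h and from 161 to 306 CPM in PBS, with no marker at 0 in a whole group. Over the 17 libraries Ms4a4b followed that sum with r = 0.45, and with r = 0.09 after group means were subtracted, against 0.62 and 0.48 for the monocyte sum, 0.57 and 0.45 for the B lymphoid sum and 0.53 and 0.65 for the plasmacytoid dendritic cell sum. The part of T and natural killer cells in the level of Ms4a4b was not tested.

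Ms4a4c varied most within the antibody groups and was called in no comparison. It was at 9.54, 16.2, 6.76, 11.7 and 4.42 CPM in the PBS libraries, at 16.0, 18 and 18.7 CPM with LPS at 24 h and at 23.8, 21.2 and 42.3 CPM with LPS at 72 h. Levels with antibody were at 41.1, 20.9 and 10.8 CPM at 24 h and at 45.9, 6.63 and 13.1 CPM at 72 h. In both antibody groups library 1 was the highest, and the ranges of the remaining libraries overlapped that of PBS. The same 2 libraries had the highest summed level of 23 interferon response genes, 4330 CPM at 24 h and 5790 CPM at 72 h, against 552 to 1530 CPM in the other 15 libraries. Without library 1 the log2 change of Ms4a4c against PBS moved from 1.32 to 0.71 at 24 h (edgeR adjusted p from 0.0791 to 0.388) and from 1.17 to 0.05 at 72 h (from 0.143 to 0.955). Conversely Ms4a4c was called higher than in PBS without antibody 24 h library 3 (log2 change 1.71, adjusted p = 0.0423), without antibody 72 h library 2 (1.63, adjusted p = 0.049) and, at 24 h, by DESeq2 (adjusted p = 0.0433). Of the 23 interferon response genes, those called against PBS were 2 with LPS at 24 h, 1 with LPS and antibody at 24 h and 3 with LPS and antibody at 72 h, all higher. Of all genes, 37.6%, 24.2% and 13.2% were called in these comparisons, so none of the 3 counts stands out. The interferon response genes called were Oas1a and Bst2 in the first, Gbp3 in the second and Gbp2, Gbp3 and Cxcl10 in the third. Over the 17 libraries Ms4a4c followed the interferon sum with r = 0.55, and with r = 0.76 after group means were subtracted. For the basophil and mast cell sum these were 0.32 and 0.64. The part of interferon signalling in the level of Ms4a4c was not tested.

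At most 3 of the 6 members were called in a comparison, as the plot of log2 changes shows, and with so few members the counts are given beside the share of all genes without a test. With LPS at 24 h against PBS, 2 of 6 members were called (Ms4a3 and Ms4a6d, both higher), where 37.6% of all tested genes were called, and 0 of 6 in the 15 libraries numbered 1 to 3, with the replicate block or without it. The libraries overlapped for all 6, whereas they did not for 42.8% of all genes. With LPS and antibody at 24 h against PBS, 2 of 6 were called (Ms4a6b and Ms4a6d, both higher), against 24.2% of all genes, and the libraries did not overlap for Ms4a6d, as for 31% of all genes. Ms4a6b rose 1.42-fold there (log2 change 0.50, SE 0.169, edgeR adjusted p = 0.0419). Its call was lost without PBS library 1 (adjusted p = 0.067), 3 (0.0639) or 5 (0.0771) and without antibody 24 h library 1 (0.0503), 2 (0.0669) or 3 (0.159). With LPS and antibody at 72 h against PBS, 1 of 6 was called (Ms4a4b, lower), against 13.2% of all genes, and the libraries did not overlap for 2 (Ms4a4b and Ms4a6b), against 26.9% of all genes. Ms4a6b had a log2 change of 0.53 there (SE 0.169, adjusted p = 0.0512), which passed the threshold without PBS library 2 (0.63, adjusted p = 0.0399). Ms4a6c passed it with LPS and antibody at 24 h only without PBS library 4 (log2 change 0.86, adjusted p = 0.0394, against 0.68 and 0.0924 with all libraries). All 3 comparisons share the PBS libraries with the comparison through which the members were chosen.

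Between 24 h and 72 h of LPS 3 of 6 members were called (Ms4a6b and Ms4a6c higher, Ms4a6d lower), against 31.1% of all genes. The libraries did not overlap for these 3 and for Ms4a4c, against 45.4% of all genes. The LPS 72 h libraries are also in the comparison through which the members were chosen, so these counts are no independent support. In the antibody groups the same step in time gave 0 calls by edgeR among the members and 0% among all genes. At an unadjusted p under 0.05 there were 0 members and 634 of 14920 genes. The change of Ms4a6b was 0.02 (95% interval -0.38 to 0.43), and the adjusted p of the members ran from 0.918 to 0.996. The libraries did not overlap for Ms4a4b, which was lower at 72 h, against 9.26% of all genes. The group means in this comparison and in that of the antibody with LPS alone at 24 h use none of the libraries through which the members were chosen. The filter, the scaling and the spread behind the p-values and intervals were still taken over all 17 libraries. For the antibody against LPS alone at 24 h, too, edgeR called 0 of 6 members and 0% of all genes, with 0 members and 273 genes at an unadjusted p under 0.05. Ms4a6b had a log2 change of 0.36 (95% interval -0.04 to 0.77), and its 3 antibody libraries lay above the 3 libraries of LPS alone, a separation in either direction that 3.15% of all genes had.

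At 72 h the antibody comparison gave 1 call among the 6 members (Ms4a4b, lower), against 15.1% of all genes. The libraries did not overlap for 4 members, against 33.2% of all genes: Ms4a4b, Ms4a6b and Ms4a6c were lower and Ms4a6d was higher with antibody. By edgeR, Ms4a6b had a log2 change of -0.56 (SE 0.191, adjusted p = 0.0597), Ms4a6c of -0.76 (SE 0.326, adjusted p = 0.12) and Ms4a6d of 0.95 (SE 0.502, adjusted p = 0.205). Ms4a6b was called as well under 3 of 8 other settings: upper-quartile factors, a stricter filter on low counts and DESeq2's Wald test. Their adjusted p was 0.0347, 0.0357 and 0.0341, and it was up to 0.0949 in the rest. With a library left out, Ms4a6b was called in 0 of 6 fits (log2 change from -0.70 to -0.36, adjusted p from 0.0564 to 0.231). The reference group here is the one in which Ms4a6b was chosen as high, so lower values of Ms4a6b with antibody, and a negative interaction, were favoured by the choice. The same holds for Ms4a6c, which followed Ms4a6b. Whether the antibody effect differed between the times was tested as an interaction, in which 0 of 6 members and 6.37% of all genes were called by edgeR. At an unadjusted p under 0.05 there were 3 of 6 members, against 3616 of 14920 genes (24.2%). These members were Ms4a6b with a difference of -0.92 on the log2 scale (SE 0.271, adjusted p = 0.0539), Ms4a6c with -0.99 (SE 0.46, adjusted p = 0.198) and Ms4a4b with -1.54 (SE 0.577, adjusted p = 0.114). The same 3 of 8 settings called Ms4a6b in the interaction, at adjusted p = 0.039, 0.0345 and 0.02, with up to 0.0765 in the rest. Of 12 fits that left out a library 1 called it, that without antibody 24 h library 2 (difference -0.96, adjusted p = 0.0466). The highest adjusted p of these 12 fits was 0.142.

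**Figure D4:**
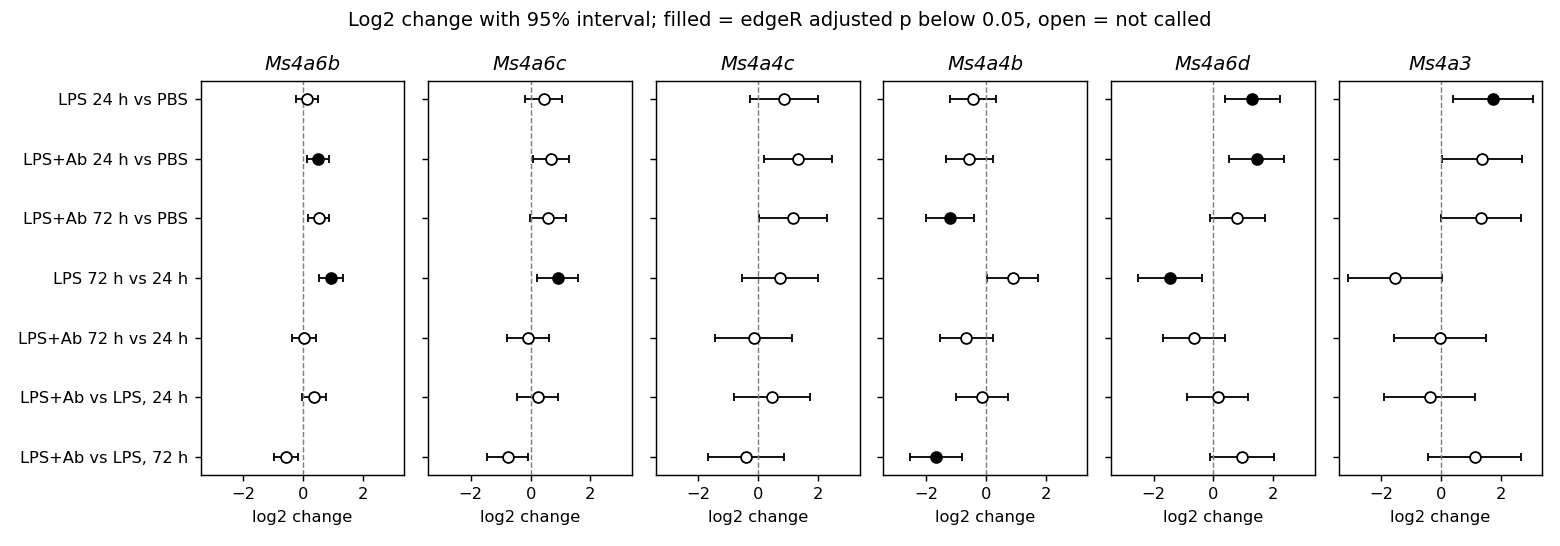
Log2 change (horizontal axes) with its 95% interval for each member in 7 comparisons (rows), from 1 edgeR fit of the 17 libraries. Filled points have an adjusted p below 0.05. Filled points stand for Ms4a6b at 0.50 and 0.94, Ms4a6c at 0.91, Ms4a4b at -1.19 and -1.66, Ms4a6d at 1.30, 1.44 and -1.45, and Ms4a3 at 1.74.

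The comparison through which Ms4a6b was chosen, LPS at 72 h against PBS, had 3 called genes of 14920 (0.0201%). As a description, the log2 change was 1.08 (SE 0.167) for Ms4a6b, 1.35 (SE 0.284) for Ms4a6c and 1.59 (SE 0.529) for Ms4a4c. The libraries of these 3 members did not overlap between the groups, where that held for 12% of all tested genes. Ms4a4b had a log2 change of 0.47 (SE 0.352), Ms4a3 of 0.20 (SE 0.641) and Ms4a6d of -0.15 (SE 0.453), all with overlap.

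The members fell into different orders of group means. For Ms4a6b the order ran from LPS at 72 h (85.6 CPM) through antibody at 72 h (58.1) and 24 h (57.3) to LPS at 24 h (44.5) and PBS (40.4). The antibody groups overlapped, as did the last 2 groups, and the other neighbours did not. For Ms4a6c and Ms4a4c the order was LPS at 72 h, antibody at 24 h, antibody at 72 h, LPS at 24 h and PBS, in which only the first 2 groups of Ms4a6c (289 and 182 CPM) did not overlap. That separation was a near tie, as the lowest library of LPS at 72 h and the highest of antibody at 24 h were both at 211 CPM after rounding. For Ms4a4b it was LPS at 72 h (14 CPM), PBS (10.1), LPS at 24 h (7.51), antibody at 24 h (6.89) and antibody at 72 h (4.41), of which the last neighbours did not overlap. For Ms4a6d it began with antibody at 24 h (12.9 CPM) and LPS at 24 h (11.7) and ended with PBS (4.78) and LPS at 72 h (4.28). For Ms4a3 it began with LPS at 24 h (770 CPM) and antibody at 24 h (590) and ended with LPS at 72 h (264) and PBS (230). All neighbours of Ms4a6d and of Ms4a3 overlapped.

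The scaling of libraries moved the balance of calls over all genes. Upper-quartile factors took the share of called genes that were higher from 50.7% to 36.8% for LPS at 24 h against PBS, from 48.3% to 32.5% for LPS and antibody at 24 h and from 51.4% to 32.8% for LPS and antibody at 72 h. The share went from 57.1% to 42.4% for antibody against LPS alone at 72 h, from 47.2% to 59.2% for LPS at 72 h against 24 h and from 63.5% to 49.7% for the interaction. The median log2 change of all genes shifted to -0.16, -0.11, -0.10, -0.08, 0.13 and -0.09 in these comparisons. No member changed direction in any of them. The libraries held between 10516722 and 16006001 counts, so a count of 0 allows up to 0.172 to 0.28 CPM (3 counts, counting error only), and LPS 24 h library 1 stood apart with a TMM factor of 0.799, against 0.948 to 1.12 in the others.

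Genes whose levels were most like those of each member over the 17 libraries were found by Pearson correlation of log2 CPM, among tested genes at or above the median level. These values are descriptions, since libraries of 1 group share their treatment. Ms4a6b was most like Ms4a6c (r = 0.92) and BE692007 (0.91). After group means were subtracted, Csf1r led for Ms4a6b (r = 0.91, Spearman rho = 0.92, and r = 0.87 without the 2 farthest libraries). Ms4a3 was most like the neutrophil protease genes Ctsg (r = 0.96) and Elane (0.94) and Sgms2 (0.95) within groups, and PBS library 5 was among the 2 farthest libraries there (r = 0.93, 0.88 and 0.89 without them). For Ms4a6d they were Lcn2, which encodes lipocalin 2 (r = 0.84), Adpgk (0.83) and Mphosph10 (0.75), and for Ms4a4c Slfn2 (0.94), Tor1aip1 (0.92) and Cybb, a subunit of the phagocyte oxidase (0.90). Ms4a4b had less close partners, Rragc (r = 0.79), Ly86 (0.78) and Plekhm1 (0.75), which fell to 0.56, 0.60 and 0.53 without PBS libraries 2 and 5.

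Csf1r itself was at 75.3 ± 13.4 CPM with LPS at 24 h and 228 ± 86.4 CPM with LPS at 72 h (SD, n = 3 each), which edgeR called higher (log2 change 1.60, SE 0.304, adjusted p = 0.00142). Unlike Ms4a6b, Csf1r was lower with LPS at 24 h than with PBS (log2 change -1.03, SE 0.276, adjusted p = 0.00957, and 0.0632 without LPS 24 h library 1). Within the family Ms4a6b and Ms4a6c had the highest correlation of the 15 pairs of members (r = 0.92 over 17 libraries and 0.88 after group means were subtracted). For Ms4a6b and Ms4a6d it was 0.07, and for Ms4a4b and Ms4a4c it was 0.29.

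Of 15 other Ms4a symbols in the table, 7 had a count of 0 in every library and 4 more (Ms4a4a, Ms4a4d, Ms4a8a and Ms4a15) stayed at or below 1.49 CPM and were not tested. Ms4a7, known from macrophages, was at 2.51, 23.1, 3.21, 2.32 and 7.36 CPM in the PBS libraries and at 0.278, 0.137 and 0.319 CPM with LPS at 24 h. It was at 0.0916, 0.0845 and 0.0731 CPM with LPS at 72 h, which is 1 read in each library. With antibody it was at 0.77, 0.156 and 0.162 CPM at 24 h and at 0.252, 1.59 and 0.0707 CPM at 72 h, so that all libraries of mice given LPS lay below all PBS libraries. By edgeR, Ms4a7 against PBS had a log2 change of -4.92 (SE 1.05, adjusted p = 0.00263) with LPS at 24 h, of -4.33 (SE 0.998, adjusted p = 0.00919) with LPS and antibody at 24 h and of -3.64 (SE 0.951, adjusted p = 0.0244) with LPS and antibody at 72 h. The first call held with each library left out in turn, the second was lost without antibody 24 h library 2 (adjusted p = 0.0548), and the third was lost without PBS library 2 and without antibody 72 h library 1 or 3 (adjusted p up to 0.0873).

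Ms4a14 had 4, 23, 8, 13 and 13 reads in the PBS libraries, 61 in all, and 0 reads over the libraries of LPS at 24 h, of LPS and antibody at 24 h and of LPS at 72 h. At a floor of 3 counts over the group, Ms4a14 was at least 10.9-fold, 10.5-fold and 9.71-fold lower there than the pooled PBS level of 0.799 CPM. That level was taken as fixed, so the spread between the PBS libraries is not in these bounds. The summed level of 13 resident macrophage markers ran from 355 to 3400 CPM in PBS, highest in PBS library 2 as for Ms4a7 and Ms4a14. With LPS at 24 h it ran from 58.9 to 75.0 CPM, and 13 of 13 were called lower than in PBS, where 37.6% of all genes were called. No marker was at 0 in a whole group. The part of macrophages in the levels of Ms4a7 and Ms4a14 was not tested. Ms4a1, at 3.94 ± 2.03 CPM in PBS (SD, n = 5) and 0.916 ± 0.95 CPM with LPS at 24 h (SD, n = 3), was called in no comparison.

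Ms4a2, which lies between Ms4a6d and Ms4a3, was at 26.9, 11.1, 6.08, 7.76 and 4.77 CPM in the PBS libraries and at 52.7, 30.9 and 44.8 CPM with LPS at 24 h. With LPS at 72 h it was at 3.66, 3.63 and 2.78 CPM, below all libraries of the other groups. The antibody libraries had 82.3, 46.5 and 4.55 CPM at 24 h and 55, 19.6 and 6.36 CPM at 72 h. It fell by 3.67 on the log2 scale from 24 h to 72 h of LPS (SE 0.933, edgeR adjusted p = 0.00807), a call that held with each of the 6 libraries left out. With antibody at 72 h it was higher than with LPS alone (log2 change 3.01, SE 0.916, adjusted p = 0.0385), but that call held in only 2 of 6 such fits (adjusted p up to 0.175, lost without LPS 72 h library 1, 2 or 3 or antibody 72 h library 1). The call against PBS at 24 h (log2 change 1.92, SE 0.716, adjusted p = 0.0457) held in 1 of 8, that without PBS library 1. The summed level of 5 basophil and mast cell markers ran from 109 to 111 CPM with LPS at 72 h and from 145 to 511 CPM at 24 h, and 3 of 5 were called lower at 72 h, where 31.1% of all genes were called. The part of such cells in the level of Ms4a2 was not tested.

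Tmem176a and Tmem176b, related genes on chromosome 6, changed in the same directions as each other. Tmem176b was at 177, 203, 172, 178 and 215 CPM in the PBS libraries, at 156, 124 and 130 CPM with LPS at 24 h and at 285, 238 and 190 CPM with LPS at 72 h. With antibody it was at 111, 127 and 158 CPM at 24 h and at 147, 124 and 134 CPM at 72 h, below all libraries of LPS alone at that time. From 24 h to 72 h of LPS the log2 change was 0.80 for Tmem176b (SE 0.164, edgeR adjusted p = 0.00221) and 1.06 for Tmem176a (SE 0.21, adjusted p = 0.00185). With antibody against LPS alone at 72 h it was -0.82 (SE 0.164, adjusted p = 0.00566) and -1.01 (SE 0.21, adjusted p = 0.00655). These 4 calls held with each library left out and in all 8 other settings. With LPS at 24 h against PBS it was -0.47 (SE 0.148, adjusted p = 0.021) and -0.59 (SE 0.19, adjusted p = 0.0241), and both calls were lost with the replicate block and without LPS 24 h library 2 or 3 (adjusted p up to 0.0794 and 0.0953). The pair overlaps in 81 exon bases on opposite strands, which is 3.42% of the exon bases of Tmem176b.

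**Figure D5:**
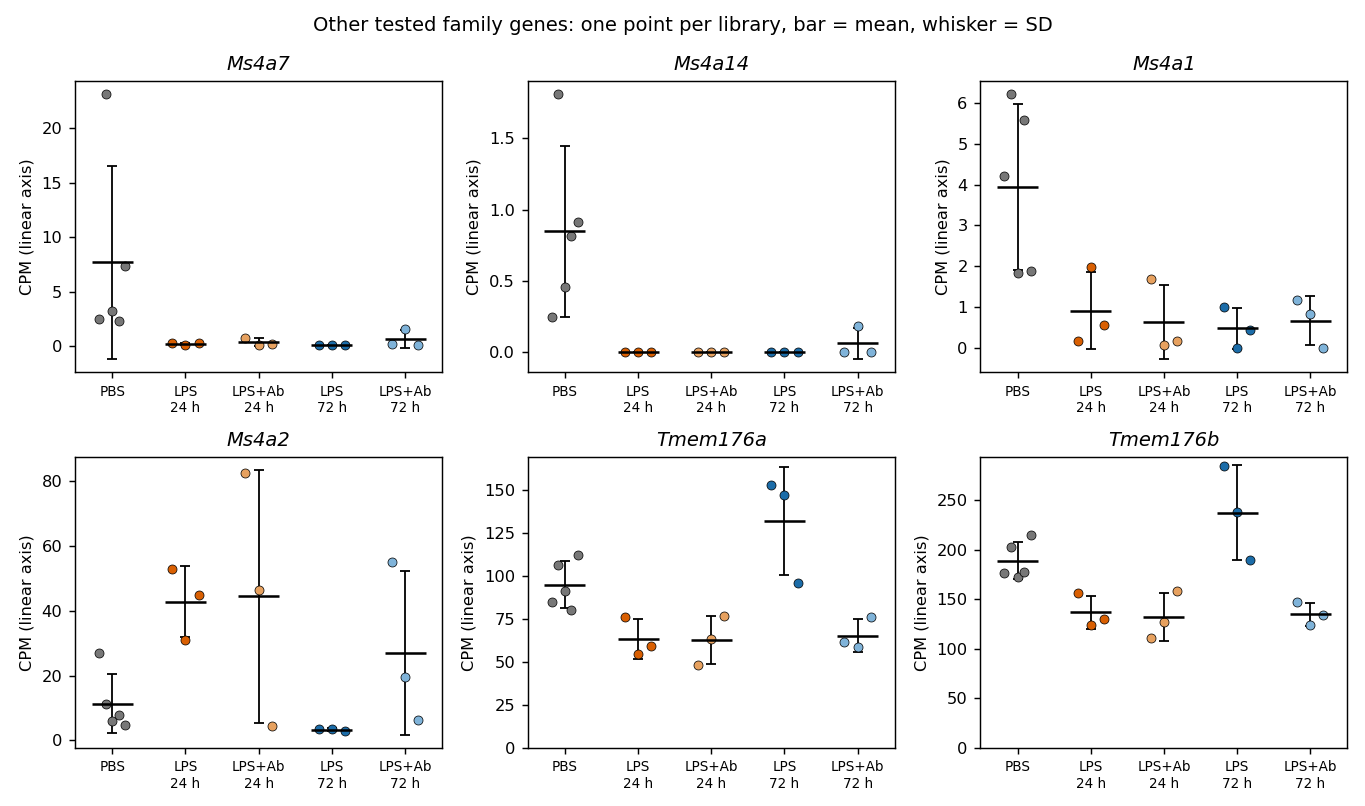
CPM (vertical axes, linear, each with its own range) of the 6 other tested family genes in the 17 libraries by group (horizontal axes). Points are libraries, bars are means and whiskers are SDs. Ms4a7 and Ms4a14 lie near 0 in nearly all libraries of mice given LPS, and Ms4a2 lies between 2.78 and 3.66 CPM with LPS at 72 h.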

How the data were processed

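RNA abundance was measured in 17 libraries of sorted bone marrow cells. The authors deposited raw whole-number read counts per gene symbol, and the submitters' processing notes name HISAT2 2.2.0, Subread, featureCounts 2.1.1, R 4.3.2, DESeq2 and the build GRCm38, without roles or order. Annotation, use of strand and handling of reads that match several genes are not given in the sources used here. Unused columns of values numbered 0.

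Genes were filtered with filterByExpr in edgeR 4.0.16 (R 4.3.3; minimum count 10, minimum total count 15), which kept 14920 genes with 99.9% of the counts. TMM factors and the quasi-likelihood test were used in 1 fit of all libraries with a mean per group. Genes were called at a Benjamini-Hochberg adjusted p below 0.05, taken over all tested genes of a comparison. A standard error is the absolute log2 change divided by the square root of F, and intervals are at 95%. Positions and exon lengths came from GENCODE M21 on GRCm38 and upstream windows (up to 250 bases) from RefSeq.

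The members, gene lists and tests were chosen with earlier results of these data known. The text names the members, the other Ms4a genes that were tested, the 3 genes most like each member (1 of them is not reported here), and from the interferon list those called. Tmem176a and Tmem176b were added as structurally related genes. A protein comparison planned at the start was not made.

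Alternatives were DESeq2 and upper-quartile factors, no filter, a stricter filter (mean CPM of at least 5), DESeq2 1.42.0, only the groups compared, a replicate block, and leaving out each library. Libraries of PBS and of LPS at 24 h with the same number had deviations from their group means that correlated across genes at 0.158 to 0.191, above 0.1 in each of the 3 pairs, so the titles' numbers were treated as pairs there. Libraries with different numbers were not compared in this way, so a link by number is not shown. No other comparison met this rule in all 3 pairs, but some pairs correlated more strongly. For antibody at 72 h against 24 h the values were 0.723, -0.022 and 0.697 for libraries 1, 2 and 3. For antibody against LPS alone at 72 h they were 0.267, 0.011 and 0.319. Scripts were tested on simulated data.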

Additional observations from a re-analysis of the deposited data

Results flagged for a closer look

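Of the 12 tested family genes, 2 had a PBS library that stood apart from the other 4 by Dixon's test at the 95% level, which chance does in about 1 in 20 groups. For Ms4a7 it was PBS library 2 at 23.1 CPM, where the next highest was at 7.36 CPM. For Ms4a2 it was PBS library 1 at 26.9 CPM, where the next highest was at 11.1 CPM. None of the 6 members had such a library. Without PBS library 2, Ms4a7 remained lower than PBS with LPS at 24 h and with LPS and antibody at 24 h by edgeR's quasi-likelihood test, and was no longer called with LPS and antibody at 72 h. The causes were not tested.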

How the results depend on the processing

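With 3 to 5 libraries a group most calls lay close to the threshold, and the causes of lost calls were not tested. The rise of Ms4a6b from 24 h to 72 h of LPS was called in all 8 other settings and all 6 fits that left out a library, but Ms4a6b was chosen as high in those 72 h libraries, which favours this result. In the 24 h comparison of antibody with LPS and in the time comparison of the antibody groups, 0 members were called under every setting.

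For LPS at 24 h against PBS the count of 2 called members became 1 with upper-quartile factors or a fit of only the groups compared, and 0 with the replicate block or its 15 libraries unblocked, a fit chosen after seeing the data. For LPS and antibody at 24 h against PBS it went from 2 to 1 with upper-quartile factors, the stricter filter or only the groups compared, to 0 with the replicate block or its libraries unblocked, and to 3 with DESeq2's Wald test. For LPS and antibody at 72 h against PBS it went from 1 to 0 without a filter, with the replicate block, with its libraries unblocked or with only the groups compared, and to 2 with DESeq2's Wald test. For antibody against LPS at 72 h it went from 1 to 2, and for the interaction from 0 to 1, with upper-quartile factors, the stricter filter or DESeq2. For LPS at 72 h against 24 h it went from 3 to 2 without a filter or with upper-quartile factors. The block changed no other count of called members.

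With 1 library left out the counts ran from 0 to 2 for LPS at 24 h against PBS and for LPS and antibody at 24 h against PBS, from 0 to 1 for LPS and antibody at 72 h against PBS, for antibody against LPS at 72 h and for the interaction, and from 1 to 2 for LPS at 72 h against 24 h, where the count was 3 with all libraries. Changes of sign occurred only in such fits and only for changes that were not called. For antibody against LPS at 24 h the log2 change then ran from -0.72 to 0.21 for Ms4a3, from -0.40 to 0.21 for Ms4a4b, from -0.15 to 0.83 for Ms4a4c and from -0.29 to 0.44 for Ms4a6d. For antibody at 72 h against 24 h it ran from -0.30 to 0.32 for Ms4a3, from -1.30 to 0.46 for Ms4a4c, from -0.05 to 0.16 for Ms4a6b and from -0.21 to 0.12 for Ms4a6c. For antibody against LPS at 72 h Ms4a4c ran from -1.51 to 0.06.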

Other observations

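Other marker lists gave these values. The summed level of 8 B lymphoid markers ran from 129 to 176 CPM in PBS, from 41.9 to 76.2 CPM with LPS at 24 h and from 74.8 to 183 CPM with LPS at 72 h, and edgeR called 2 of 8 lower and 0 higher with LPS at 24 h than with PBS, where 37.6% of all genes were called. Of 4 plasmacytoid dendritic cell markers 4 were called lower with LPS at 24 h than with PBS, and their sum ran from 1.34 to 5.15 CPM against 25.7 to 85.3 CPM. Of 9 erythroid markers 3 were called lower and 0 higher with LPS at 72 h than at 24 h, a share near the 31.1% of all genes called. No marker of these lists was at 0 in a whole group. The B cell gene Ms4a1 was itself not called.

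Over all 17 libraries without subtracting group means, Ms4a3 was most like Ap3s1 (r = 0.95), P4hb (0.95) and Trem3 (0.94), Ms4a4b was most like Itgb7 (0.84), Ly86 (0.83) and Cnn2 (0.82), and Ms4a4c was most like B3gnt2 (0.83), Slc12a9 (0.81) and Ifi30 (0.77). For Ms4a6d they were Adpgk (0.92), Lcn2 (0.88) and Gm45902 (0.88). Lcn2 was at 83.3 ± 32.7 CPM with LPS at 24 h and 17.6 ± 11 CPM with LPS at 72 h (SD, n = 3 each). For Ms4a6c the third gene after BE692007 and Ms4a6b was Nuak2 (0.85), and Dr1 (0.86) after group means were subtracted. These are descriptions of 17 libraries that share groups.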
